A study of Homo sapiens with 8 samples.

Results

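The genes examined are those of the proteasome and of the proteins that assemble it. They were found as the array probe sets whose annotation names 1 gene symbol beginning with PSMA to PSMG and a number. This gave 97 of 54613 probe sets, for 50 genes, of which 42 encode a proteasome subunit, regulator or assembly chaperone (81 probe sets) and 8 (16 probe sets) share the pattern of the name alone. The filter on dim probe sets left 84 of the 97, and 41 of the 42 genes. PSMA8, the subunit specific to the testis, was the gene left out. PSMA6 and PSME2 are annotated only together with a neighbouring gene and were not used for counts, and PSMC5, PSMD7 and PSMD13 were not analysed here. The cells were H1, a widely used line of human embryonic stem cells (established, not a patient sample), kept on a feeder layer of irradiated mouse embryonic fibroblasts. Flow sorting on light scatter, forward (cell size) and side (granularity), gave a large and a small subpopulation. The 8 samples are 4 biological repeats of the sort for each, every one on an Affymetrix Human Genome U133 Plus 2.0 array from 1 ug of total RNA. Both groups share the line, the feeders and the absence of any drug or genetic change in the labels, which do not give the gates or the cell cycle phase.

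The proteasome degrades proteins that carry a ubiquitin chain. Its core is a barrel of alpha and beta rings with the proteolytic sites inside the beta rings, and its cap recognises, unfolds and feeds in the substrate using a ring of ATPases and a set of non-ATPase subunits. Other regulators can bind the barrel in place of the cap, inducible beta subunits can replace the catalytic ones after interferon, and dedicated chaperones that are absent from the finished particle build the rings. Human embryonic stem cells are known for high proteasome activity.

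Array brightness differed, with a 75th percentile of 42.0 to 106 intensity units, so the arrays were normalized to each other and every value below is a normalized log2 intensity relative to the RNA on the array. As a sign of RNA quality, the GAPDH and ACTB control probe sets at the 3 prime end exceeded those at the 5 prime end. The mean log2 excess was 2.92, 1.85, 1.83 and 1.89 on large arrays 1 to 4. On small arrays 1 to 4 it was 2.44, 1.95, 2.66 and 2.42. The highest values were on large array 1 and small array 3. Large arrays 2 to 4 lay below every small array, so apart from large array 1 this measure differed between the fractions. Of the 12 listed embryonic stem cell markers, the 10 with a probe set of their own all stood at or above percentile 96.9 of brightness among all probe sets, and 0 passed the test between the fractions. The per-array median of their levels was 10.63 to 10.77 in small and 10.75 to 10.92 in large cells. Their median log2 difference, small minus large, was -0.10. Only ZFP42 was positive, at 0.08, where 56% of all tested genes were positive. All 9 fibroblast markers were measured too, and 0 of the 9 passed. Their per-array median was 7.88 to 8.55 in small and 7.73 to 8.78 in large cells. The median log2 difference of these 9, small minus large, was -0.01. Of them VIM, which many cell types express, was 1.12 ± 0.30 (SE) higher in small cells without overlap (adjusted p = 0.0723). COL1A1 went the other way, at -0.59 ± 0.28 (adjusted p = 0.31). Single fibroblast markers varied more between sorts than the median of the list, COL3A1 the most. It was at 7.97, 8.39, 6.28 and 5.10 on large and 7.65, 8.55, 6.73 and 4.91 on small arrays 1 to 4. The neural marker PAX6 was 1.77 ± 0.52 higher in small cells (adjusted p = 0.106), with large array 1 at the small level. The corresponding ranges were 5.13 to 5.87 and 4.74 to 5.63 for neural, 4.29 to 5.02 and 4.05 to 5.56 for mesendoderm and endoderm, and 4.82 to 5.75 and 5.06 to 5.86 for trophoblast markers. In these lists FOXA2, GATA4, MIXL1, CDX2 and CGA lay below the filter. The part of other cells and of RNA quality in the results below was not tested, except where a value is given. In sorted bulk RNA, fewer cells of a kind and less RNA per cell cannot be told apart.

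Of the 41 tested genes, 1 passed the test at an adjusted p under 0.05, the assembly chaperone gene PSMG4, which was higher in small cells, and 0 were lower. For either direction 1 of 41 is a share near the background, since among all 14726 tested genes 1.99% passed. Only 0.299% of all tested genes passed as higher, but 1 gene is too few to compare with that share. By probe set, 1 of the 84 members passed, against 1.5% of all 32768 tested probe sets in either direction and 0.198% as higher. The test was limma with Benjamini-Hochberg adjustment over all tested genes or probe sets.

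The differences leaned towards the small cells. The median log2 difference, small minus large, was 0.21 over the 41 genes and 0.05 over all tested genes, and 31 of the 41 were positive (75.6%), against 56% of all tested genes. Without adjustment 12 of the 41 genes (29.3%) were higher at p under 0.05 and 0 were lower, where 8.51% of all tested genes were higher and 7.99% lower. The members were measured more tightly than most genes, with a median standard error of 0.15 against 0.24. All 4 small values lay outside the range of the 4 large ones for 3 of the 41 genes, PSMG4, PSMF1 and PSMD4, all with small higher, a share of 7.32% where 10% of all tested genes did not overlap (4.94% with small higher and 5.07% with small lower). For 20 of the 41 genes the 95% interval of the difference lay within a 1.5-fold change in either direction, as it did for 24.3% of all tested genes. With scaling to the 75th percentile in place of quantile normalization the median was 0.37, with 0.09 over all genes, and 38 of 41 were positive, while with the mean of all tested probe sets of a gene it was 0.13, and without large array 3 it was 0.14. The count of 12 genes at an unadjusted p under 0.05 was 5 without large array 3, 7 without small array 1, 8 without large array 2, large array 4 or small array 2, and 6 with the mean of probe sets.

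**Figure D1:**
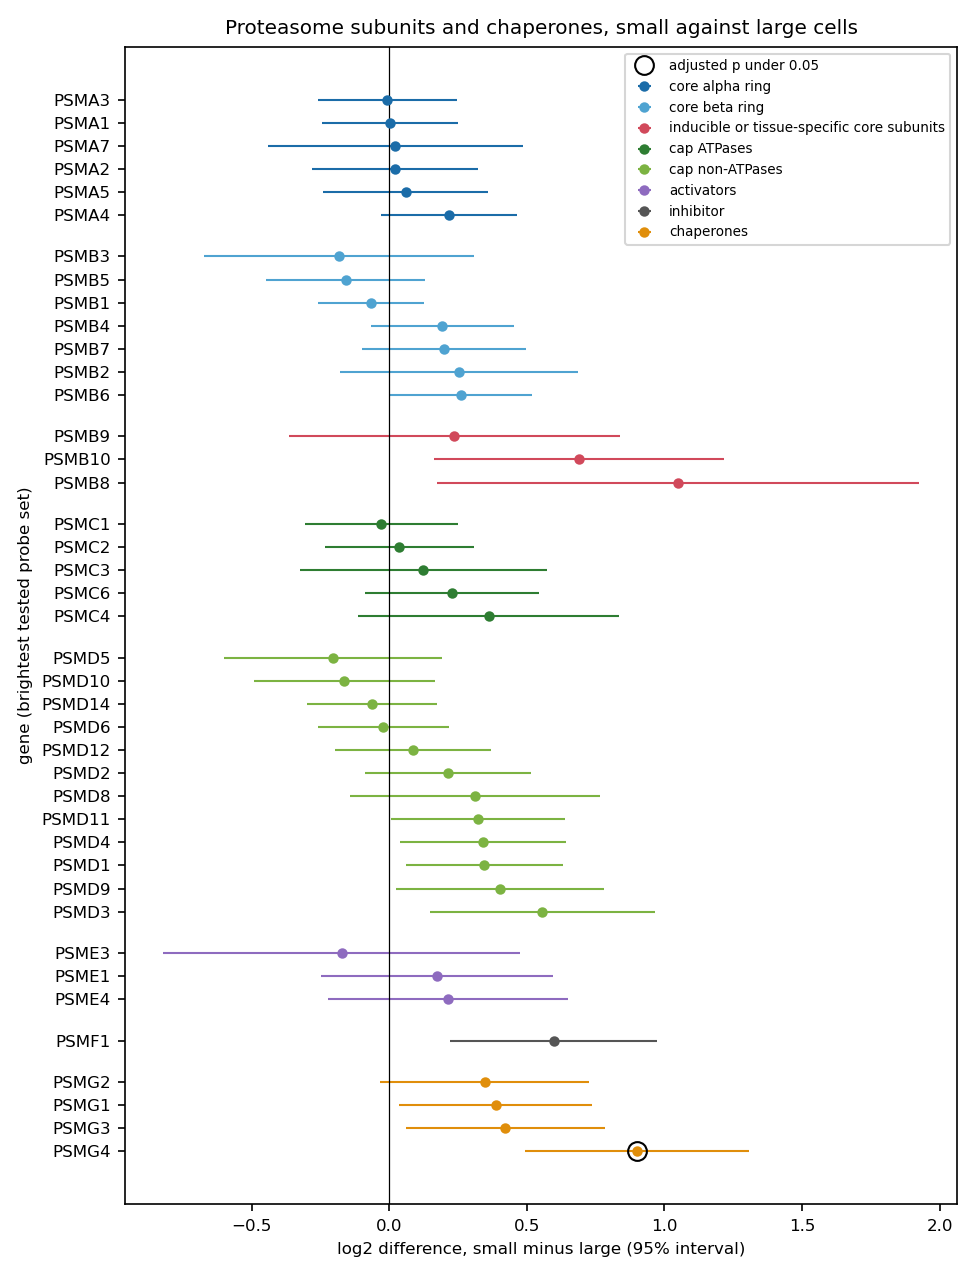
Log2 difference, small minus large, of each tested proteasome gene (points, horizontal axis) with its 95% interval (lines), grouped by role on the vertical axis. The ring marks PSMG4, the gene that passed the test at 0.90, while the alpha subunits lie between -0.01 and 0.22.

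The alpha ring, whose subunits form the outer gates of the barrel, had small differences after quantile normalization. All 6 tested alpha genes differed by less than 0.3 on the log2 scale, 0 passed, and the median was 0.02. PSMA4 had the smallest p of the ring. Its levels on large arrays 1 to 4 were 11.31, 11.25, 11.12 and 11.09, and on small arrays 1 to 4 they were 11.57, 11.55, 11.20 and 11.32. The ranges overlap, and the difference was 0.22 ± 0.11 (moderated SE, n = 4 per group, adjusted p = 0.377). PSMA5 and PSMA2 had differences of 0.06 ± 0.14 and 0.02 ± 0.14. For all 6 genes the 95% interval stayed within a 1.5-fold change, and for PSMA1 it ran from -0.24 to 0.25. With scaling to the 75th percentile all 6 were positive, the median was 0.20 where that of all genes was 0.09, and PSMA4 was at 0.41 ± 0.17.

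The constitutive beta ring carries the proteolytic sites. Of its 7 tested genes 0 passed, 4 were positive and 3 negative, and the median was 0.19. Scaled to the 75th percentile, 7 of 7 were positive and the median was 0.37. PSMB6 encodes the caspase-like site. It was at 10.72, 10.65, 10.55 and 10.53 on the large and 10.96, 11.09, 10.68 and 10.77 on the small arrays. Small array 3 fell within the large range and the other small arrays lay above it, for a difference of 0.26 ± 0.12 (SE, adjusted p = 0.298). PSMB7, the trypsin-like site, was at 10.24, 10.77, 10.29 and 10.66 on the large and 10.61, 10.86, 10.62 and 10.66 on the small arrays, and the difference was 0.20 ± 0.14 (adjusted p = 0.522). PSMB5, the chymotrypsin-like site, was at 10.31, 10.62, 10.78 and 10.62 on the large and 10.46, 10.63, 10.20 and 10.40 on the small arrays, with overlapping ranges. Its difference was -0.16 ± 0.13 (adjusted p = 0.609), and it turned to 0.03 with median centring or 75th percentile scaling. PSMB4, a structural subunit, had a difference of 0.19 ± 0.12. The interval lay within a 1.5-fold change for 11 of the 13 alpha and beta genes together, PSMB2 (-0.18 to 0.69) and PSMB3 (-0.67 to 0.31) being the exceptions.

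The inducible subunits replace the catalytic ones in the immunoproteasome, PSMB8 in place of PSMB5, PSMB9 of PSMB6 and PSMB10 of PSMB7. All 3 differences were positive, with a median of 0.69, but 0 passed. PSMB8 was at 4.40, 4.28, 6.30 and 6.10 on the large and 6.10, 6.31, 6.36 and 6.51 on the small arrays. Large arrays 1 and 2 were low, while large arrays 3 and 4 were at the level of the small arrays, and the difference was 1.05 ± 0.41 (SE, adjusted p = 0.214). PSMB10 was at 6.32, 6.58, 5.90 and 6.05 on the large and 7.50, 6.93, 6.35 and 6.83 on the small arrays. Its ranges overlap through small array 3, and the difference was 0.69 ± 0.25 (adjusted p = 0.178). With arrays weighted by their quality it passed at 0.86 (adjusted p = 0.0479), where all genes passing went from 293 to 824 (5.6%). In that fit PSMB8 was at 0.64 (adjusted p = 0.356) and PSMB9 at 0.13 (adjusted p = 0.839). PSMB9 was at 4.74, 4.66, 4.84 and 5.04 on the large and 4.50, 5.36, 4.96 and 5.40 on the small arrays, with the lowest of all 8 values in small array 1, and a difference of 0.24 ± 0.28 (adjusted p = 0.732).

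Genes that work beside the inducible subunits in antigen processing pointed the other way. Of 8 listed, 7 were tested, with a median difference of -0.52, and 0 passed. All 7 differences were negative, as were 6483 of all 14726 tested genes. Beta-2 microglobulin, B2M, the light chain of HLA class I, was at 10.44, 10.17, 10.14 and 10.27 on the large and 9.91, 9.82, 9.45 and 10.02 on the small arrays. The ranges do not overlap, and the difference was -0.45 ± 0.14 (SE, adjusted p = 0.126). The peptide transporter subunit TAP2 had a difference of -0.76 ± 0.30 (adjusted p = 0.223). TAP1, whose gene lies head to head with PSMB9, had -0.52 ± 0.24 (adjusted p = 0.298) and no overlap between the fractions either. These 2 of the 7 (28.6%) did not overlap with small lower, against 5.07% of all tested genes. The HLA class I heavy chains HLA-B and HLA-C had differences of -1.13 ± 0.33 and -1.03 ± 0.35 (adjusted p = 0.106 and 0.158). HLA-G, HLA-E and HLA-F had -0.80 ± 0.23, -0.55 ± 0.20 and -0.30 ± 0.22 (adjusted p = 0.102, 0.181 and 0.555). All these HLA values come from probe sets of the type _x_at, which the design marks as shared between transcripts. The part of related genes in each value was not tested. The difference in direction between the inducible subunits and these genes was not tested.

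In the cap class, made of the PSMC and PSMD symbols, 0 of 17 tested genes passed, 12 were positive, and the median was 0.21. This class counts the assembly chaperones PSMD5, PSMD9 and PSMD10, which are not part of the finished cap. Of its ATPases, which unfold the substrate, 5 were tested, with a median of 0.12. PSMC4 had a difference of 0.36 ± 0.22 (SE, adjusted p = 0.447), which was 0.17 without large array 4 and 0.57 without large array 2. PSMC6 had a difference of 0.23 ± 0.15 and PSMC3 of 0.12 ± 0.21. For 4 of the 5 ATPase genes the interval lay within a 1.5-fold change, PSMC4 (-0.11 to 0.83) being the exception.

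The 12 tested genes of the non-ATPase class, with PSMD5, PSMD9 and PSMD10 counted among them, had a median of 0.26. Of the 12, 5 (41.7%) were higher at an unadjusted p under 0.05, where 8.51% of all tested genes were. With the mean of all tested probe sets the median was 0.11, with 7 of 12 positive, and where probe sets of the types _x_at and _s_at were dropped it was 0.05, with 4 of 8 positive. PSMD3, a subunit of the lid that sits on the ATPase base, was at 7.35, 7.51, 7.41 and 7.21 on the large and 7.98, 8.24, 7.41 and 8.07 on the small arrays. Small array 3 was at the large level and the other small arrays were above it. The difference was 0.56 ± 0.19 (SE, adjusted p = 0.161). It passed in 1 of 8 fits that each left out an array, the fit without small array 3, at 0.73 (adjusted p = 0.0467). Over the 8 fits the difference of PSMD3 went down to 0.45 and its adjusted p up to 0.349. PSMD4, a receptor for ubiquitin chains, was at 10.43, 10.41, 9.86 and 10.37 on the large and 10.51, 10.57, 10.64 and 10.71 on the small arrays. The ranges did not overlap but large array 3 stood apart, and the difference was 0.34 ± 0.14 (adjusted p = 0.244), or 0.20 without that array. PSMD1, a scaffold of the base, was at 10.06, 9.89, 9.91 and 10.33 on the large and 10.36, 10.31, 10.59 and 10.31 on the small arrays, a difference of 0.35 ± 0.13 (adjusted p = 0.208). PSMD9 and PSMD11 were the other genes with an unadjusted p under 0.05, at 0.40 ± 0.18 and 0.32 ± 0.15. PSMD11 is a lid subunit that has been tied to the high proteasome activity of embryonic stem cells. The deubiquitinase PSMD14, which removes the chain before degradation, was at -0.06 ± 0.11, and its interval ran from -0.30 to 0.17. Despite their names, PSMD5, PSMD9 and PSMD10 encode chaperones of the cap base that leave before the particle is complete. They differed in sign, at -0.20 ± 0.18 for PSMD5, 0.40 ± 0.18 for PSMD9 and -0.16 ± 0.15 for PSMD10.

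Of the alternative activators 3 genes were tested, 0 passed, and all differed by less than 0.3. PSME4, which encodes a large nuclear activator, had a difference of 0.21 ± 0.20 (SE), with large array 1 at 8.32 apart from the other large arrays (9.15 to 9.26). PSME1, of the interferon-inducible activator, was at 0.17 ± 0.20 and PSME3, its nuclear relative, at -0.17 ± 0.30. The probe set of PSME2, the partner of PSME1, is shared in the annotation with a microRNA gene and had a difference of 0.75. PSMF1 encodes an inhibitor that binds the barrel. It was at 8.03, 7.43, 7.65 and 7.94 on the large and 8.42, 8.24, 8.60 and 8.19 on the small arrays. The ranges did not overlap, and the difference of 0.60 ± 0.18 had the second smallest p among the subunit and chaperone genes but did not pass (adjusted p = 0.104). Of its 4 tested probe sets, the others were at 0.01, -0.14 and 0.10.

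The chaperones that build the core had positive differences for all 4 genes, with a median of 0.40, and 1 passed. PSMG1 and PSMG2 form a pair that helps the alpha ring to close, and PSMG3 and PSMG4 form another pair that places early alpha subunits. PSMG4 was at 8.54, 8.08, 7.79 and 7.68 on the large and 8.99, 9.10, 8.80 and 8.80 on the small arrays. All small arrays lay above all large arrays, and the difference was 0.90 ± 0.19 (SE, n = 4 per group, adjusted p = 0.0286), a 1.87-fold higher level. By size it was number 10 of the 44 genes that passed as higher. Its partner PSMG3 was at 7.14, 7.06, 7.19 and 7.59 on the large and 7.79, 7.69, 7.60 and 7.59 on the small arrays, where large array 4 reached the small level, and the difference was 0.42 ± 0.17 (adjusted p = 0.224). PSMG1 was at 9.76, 9.57, 9.23 and 9.30 on the large and 9.93, 10.15, 9.54 and 9.79 on the small arrays, with overlapping ranges and a difference of 0.39 ± 0.16 (adjusted p = 0.252). PSMG2 was at 10.98, 10.72, 10.17 and 10.27 on the large and 11.02, 10.97, 10.55 and 10.98 on the small arrays, a difference of 0.35 ± 0.18 (adjusted p = 0.351). Large array 1, with the highest 3 prime to 5 prime difference, was the highest large array for PSMG1, PSMG2 and PSMG4, and small array 3 was the lowest small array for PSMG1 and PSMG2. Leaving both out, an alternative added after the data were seen, takes away a high large and a low small value of these genes, and all genes passing went from 293 to 774 (5.26%). There 4 proteasome genes passed, PSMG1 (0.59, adjusted p = 0.0446), PSMG2 (0.60, adjusted p = 0.0372), PSMG4 (1.11, adjusted p = 0.00926) and PSMD3 (0.72, adjusted p = 0.0357).

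**Figure D2:**
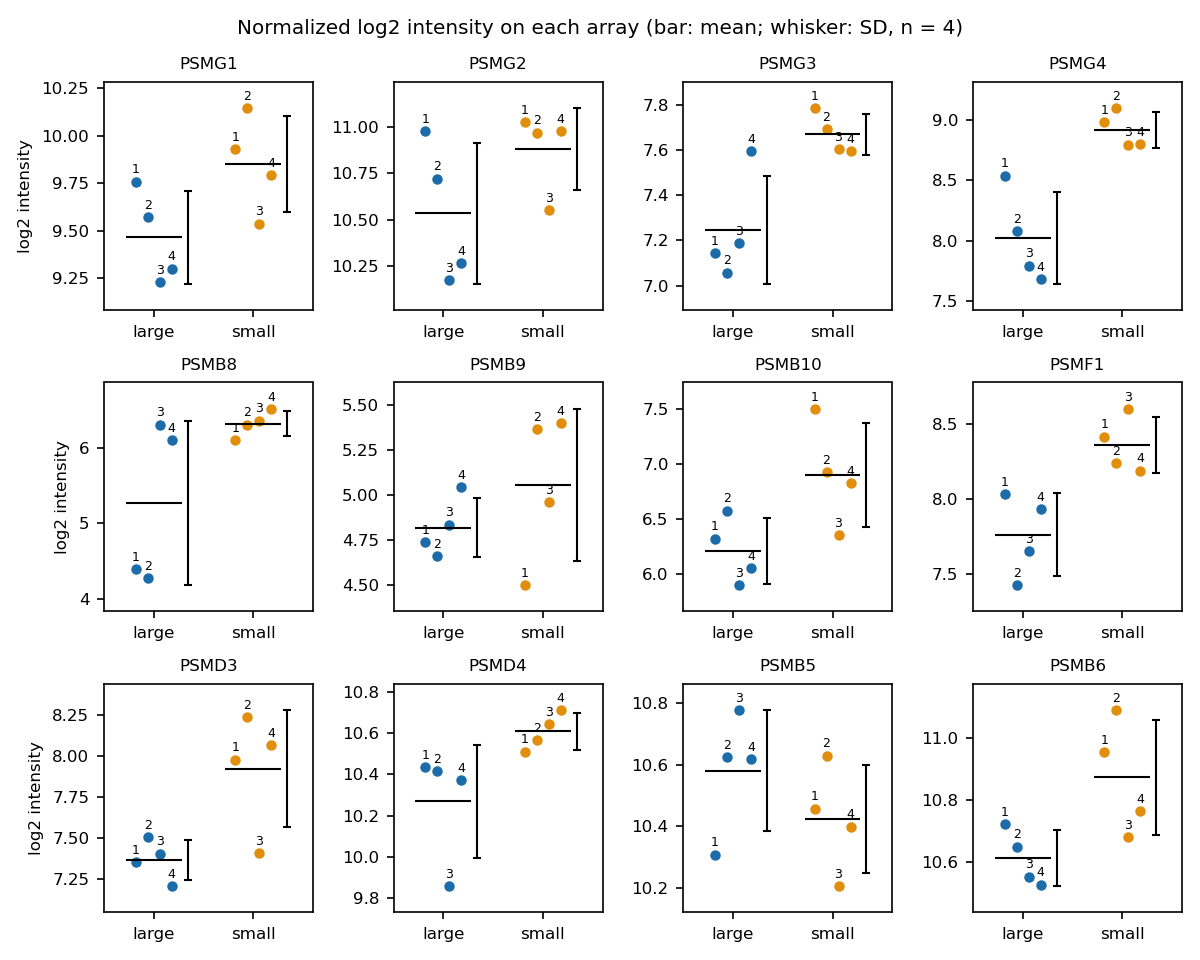
Normalized log2 intensity (vertical axes) of 12 genes on the 4 large (blue) and 4 small (orange) arrays, each point numbered by its sort, with the mean (bar) and SD (whisker). For PSMG4 the small arrays sit between 8.80 and 9.10 and the large arrays between 7.68 and 8.54, while large arrays 1 and 2 alone are low for PSMB8.

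The call of PSMG4 rested on its brightest probe set. The second tested probe set of the gene was at 5.43, 6.19, 5.66 and 5.80 on the large and 4.81, 5.41, 5.50 and 5.48 on the small arrays, a difference of -0.47 ± 0.25 (SE) in the opposite direction (adjusted p = 0.396), and another 3 probe sets were below the filter. The mean of both tested probe sets gave 0.22 (adjusted p = 0.557). The call held in 3 of 8 fits that each left out an array, and those were the fits without large array 1, small array 3 or small array 4. In the other 5 the adjusted p was between 0.0597 and 0.104, with differences from 0.79 to 0.92. With the control-probe measure of RNA quality in the model PSMG4 was at 0.81 (adjusted p = 0.0636).

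**Figure D3:**
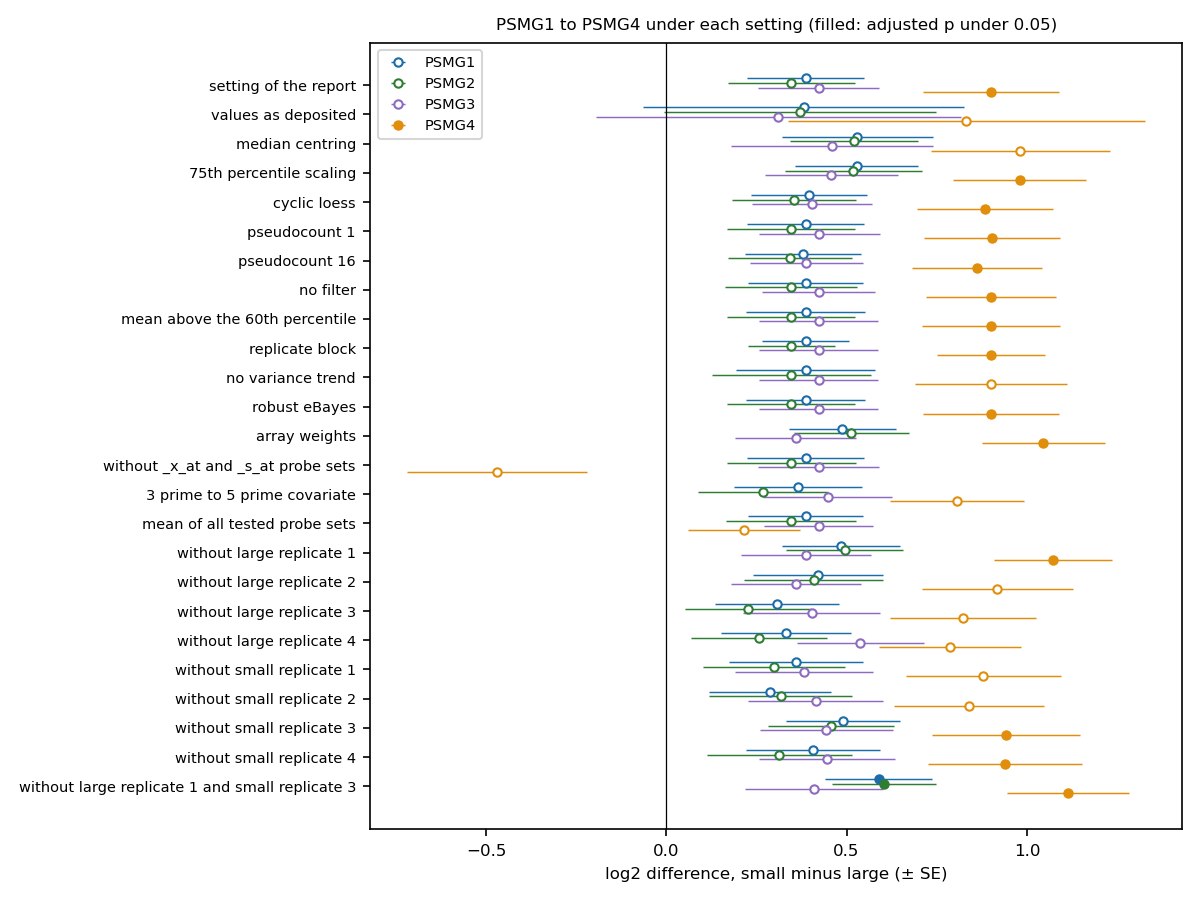
Log2 difference, small minus large, with its SE (horizontal axis) of the 4 core chaperone genes under each processing setting (vertical axis), filled where the adjusted p was under 0.05. The points are positive except PSMG4 where probe sets of the types _x_at and _s_at were dropped, at -0.47.

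Probe sets of a gene often disagreed. Among 19 subunit and chaperone genes with several tested probe sets, 12 had differences of both signs, and for 5 of these at least 1 probe set had an unadjusted p under 0.05. The 5 were PSMD1, PSMD4, PSME3, PSMF1 and PSMG4. For PSMD1 the brighter probe set was at 0.35 and the other at -0.15. For PSMD4 the brightest was at 0.34, and the others at 0.01 and -0.01. PSME3 was at -0.17, 0.46, 0.31 and -0.25 over its 4 probe sets. PSMB2 and PSMB4, with 3 tested probe sets each, were positive on all of them, and PSMD10 was negative on both of its probe sets. The design marks probe sets shared between transcripts by the endings _x_at and _s_at, and several proteasome genes have processed pseudogenes, and the share of other transcripts in those values was not tested.

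**Figure D4:**
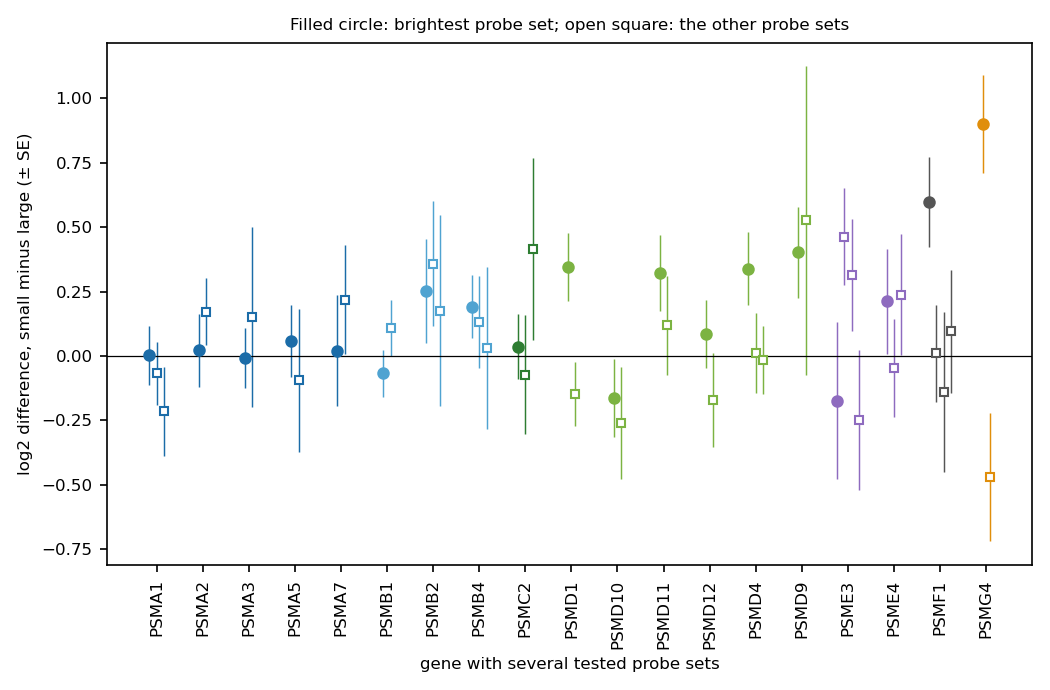
Log2 difference, small minus large, with its SE (vertical axis) of every tested probe set of the 19 genes with several (horizontal axis), as a filled circle for the brightest and open squares for the others. The probe sets of PSMG4 lie at 0.90 and -0.47, the widest gap shown.

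Promoter sequence is shown for the gene that passed and for the inducible subunits, because the interferon-stimulated response element is the known switch of the immunoproteasome. The stretches run from 150 bases before a RefSeq transcription start to 30 after it (GRCh38.p14), on the strand of the gene, and capitals mark matches to the core of that element (GAAA, then NN, then GAAA) on either strand.
PSMG4 (chr6:3258797-3258976, + strand): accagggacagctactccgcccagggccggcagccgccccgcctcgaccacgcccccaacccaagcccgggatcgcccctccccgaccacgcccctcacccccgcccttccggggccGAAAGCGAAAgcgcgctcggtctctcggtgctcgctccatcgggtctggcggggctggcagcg
PSMB10 (chr16:67936821-67937000, - strand): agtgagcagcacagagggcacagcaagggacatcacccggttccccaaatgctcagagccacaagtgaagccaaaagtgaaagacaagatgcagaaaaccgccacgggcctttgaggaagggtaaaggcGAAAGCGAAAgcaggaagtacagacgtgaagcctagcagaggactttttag
PSMB8 (chr6:32844018-32844197, - strand): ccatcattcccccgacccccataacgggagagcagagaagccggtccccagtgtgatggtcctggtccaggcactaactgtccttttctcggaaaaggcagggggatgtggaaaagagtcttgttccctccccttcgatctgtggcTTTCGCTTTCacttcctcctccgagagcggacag
PSMB9 (chr6:32854042-32854221, + strand): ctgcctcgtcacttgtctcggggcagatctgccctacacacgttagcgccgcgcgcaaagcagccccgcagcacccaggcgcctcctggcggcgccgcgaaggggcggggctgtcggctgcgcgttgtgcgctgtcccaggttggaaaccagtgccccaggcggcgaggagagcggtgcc

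PSMG4 and PSMB10 hold the same letters, GAAAGCGAAA, at position -33 and -21 from the start, and PSMB8 holds their reverse complement at its start. PSMB9 had no match in its window. Of 41 tested subunit and chaperone genes 35 had a promoter window (250 bases before the start and 50 after), and 6 of these 35 (17.1%) held the core, namely PSMA4, PSMB4, PSMB8, PSMB10, PSME1 and PSMG4, where 4.38% of the 27305 genes with a window and 3.57% of all windows did. The other RefSeq start of PSMB8 and the window of PSMG1 had no match. A window of TAP1, whose difference was negative (-0.52), held 2 matches that overlap in 1 stretch of letters. That stretch lies between the starts of TAP1 and PSMB9, beyond the edge of the PSMB9 window, so it was not counted for PSMB9. The core of the antioxidant response element, TGACNNNGC, to which the proteasome regulator NFE2L1 binds, was in 13 of 35 (37.1%, against 16.1% of all genes and 13.3% of windows), and the CCAAT box, CCAAT, in 17 of 35 (48.6%, against 39.7% of all genes and 34.6% of windows). Both strands were searched for each, and a match is a description of letters and not a site.

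Other parts of the pathway did not pass either. Of 35 listed genes for ubiquitin activation, shuttling, cap-associated proteins and regulators, 28 were tested, 0 passed, 18 were positive, and the median was 0.10. At an unadjusted p under 0.05, 3 (10.7%) were higher and 0 lower, near the 8.51% and 7.99% of all tested genes. The values of 2 of the 28 (7.14%) did not overlap, against 10% of all tested genes. ECPAS, a scaffold that tethers the cap to the core, was at 10.07, 9.68, 9.79 and 9.89 on the large and 10.23, 10.20, 10.37 and 10.08 on the small arrays. The ranges did not overlap, and the difference was 0.36 ± 0.13 (SE, adjusted p = 0.17). Where probe sets of the types _x_at and _s_at were dropped, ECPAS was at 0.13 ± 0.15 (adjusted p = 0.74). UBE2K, a ubiquitin-conjugating enzyme, was at 0.33 ± 0.12 (adjusted p = 0.199) without overlap, and at -0.02 where probe sets of the types _x_at and _s_at were dropped. The third gene was UFD1, a partner of the segregase VCP, at 0.46 ± 0.21 (adjusted p = 0.299). POMP, the maturation factor of the beta rings, differed by 0.11 ± 0.17, NFE2L1, the transcription factor that raises proteasome genes when the particle is inhibited, by -0.26 ± 0.16, and the cap subunit SEM1 by 0.34 ± 0.19.

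The 8 genes that match the name pattern without being subunits or chaperones were measured as well. Of these, 7 were tested and 0 passed. PSMC3IP, a factor of meiotic recombination, was at -0.35 ± 0.25 (SE), and PSME3IP1, which encodes a protein that binds the PSME3 activator, at -0.15 ± 0.18 and negative on all 4 of its probe sets. The antisense or divergent RNA genes PSMA3-AS1, PSMB8-AS1, PSMD6-AS2, PSMD14-DT and PSMG3-AS1 ran from -0.41 to 0.17. PSMD7-DT was below the filter. PSMB8-AS1, at -0.41 ± 0.44, and PSMB8, at 1.05 ± 0.41, differed in sign, and the difference between them was not tested.

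Single arrays carried much of the spread among members. Over the 34 tested genes of the constitutive core, cap class and core chaperones, small array 2 held the highest of the 8 values for 14 genes. Large array 3 held the lowest for 9. The median deviation of these genes from their own mean was 0.20 on small array 2 and -0.22 on large array 3, and between -0.07 and 0.08 on the other 6 arrays. The median deviation over all tested genes stayed between -0.01 and 0.05 on every array. Small array 3 had the lowest median deviation of the small arrays (-0.03), and small arrays 1 and 4 were at 0.08 and 0.05.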

How the data were processed

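RNA of 4 small and 4 large sorts of H1 cells was measured on 8 arrays. The deposited values are linear intensities per probe set. Per the series design text, the authors read the scans with GeneChip Operating Software and imported them into Rosetta Resolver (version 7.1). Which program wrote the deposited intensity values, and its background correction and scaling, are not given in the sources used here. Control probe sets (62) were left out. Values were taken to log2 after adding 1.81, the 10th percentile of all values, so folds of dim genes are understated, and were quantile normalized. Probe sets whose mean exceeded the 40th percentile (3.62) were tested in R (version 4.3.3) using lmFit and eBayes of limma (version 3.58.1), with an intensity trend of the variance. Tests were two-sided on small minus large, with Benjamini-Hochberg adjustment and a threshold of 0.05, run by probe set and by gene (brightest tested probe set). Errors are moderated standard errors; the number of arrays limits the precision. The annotation gave 41091 probe sets 1 symbol, 1801 several and 11721 none. The procedure was tested on simulated data. There it called 6 of 63 genes given a log2 difference of 0.58, 21 of 67 given 1 and 35 of 61 given 1.5. It also called 4 unchanged genes. A gene that did not pass is therefore not shown to be unchanged.

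Named genes were those called, up to 3 per role with the smallest p, the catalytic and inducible beta subunits, PSMG1 to PSMG4, and up to 4 of the pathway lists; others are given as examples chosen after their values were seen. Members and lists were chosen with earlier results of these data known. Alternatives were 15 settings, each of 8 arrays left out, and 1 added later. Equally numbered sorts were not treated as pairs, because the labels do not say that they share a culture.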

Additional observations from a re-analysis of the deposited data

Results flagged for a closer look

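In 5 of 56 groups of 4 arrays, over the 28 named genes, the highest or lowest array was farther from its neighbour than Dixon's 95% critical value allows, and chance alone gives about 1 in 20. Small array 3 stood below the others for PSMA2 (10.93, others 11.31 to 11.36) and for PSMG2 (10.55, others 10.97 to 11.02). Large array 3 was low for PSMD4 (9.858, others 10.37 to 10.43) and large array 1 for PSME4 (8.323, others 9.146 to 9.257). Large array 4 was high for TAP2 (6.646, others 6.193 to 6.232).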

How the results depend on the processing

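The proteasome median log2 difference stayed positive in every setting run, from 0.137 to 0.235 with 1 array left out, and reached 0.369 after median centring and 0.367 after scaling to the 75th percentile (all genes 0.10 and 0.09, against 0.05 in the setting of the report and -0.05 on the deposited scale). The count of proteasome genes passing was 1 in the report and 0 on the deposited scale, with median centring, without a variance trend, without _x_at and _s_at probe sets, with the 3 prime to 5 prime covariate and with the mean of probe sets. It was 2 with array weights (824 of all genes passing), 0 to 2 with 1 array left out and 4 without large array 1 and small array 3. The count of probe sets was 0 in the first 5 of these settings, 0 to 1 with 1 array left out and 3 without both arrays. Of all tested genes, limma called 0 on the deposited scale, after median centring and with the variance trend off, where 0, 14 and 6 proteasome genes had an unadjusted p under 0.05. Pathway genes passing were 0, except 1 with the replicate block (B2M), 0 to 1 with 1 array left out (TAP2 without small array 4) and 1 without both arrays (UFD1). Signs turned for PSMB5 (0.0301 after median centring and 0.0283 after scaling to the 75th percentile), for PSMF1 (-0.14), PSMG4 (-0.47) and UBE2K (-0.0162) without _x_at and _s_at probe sets, and for PSMA5 (-0.0177) and PSME3 (0.0888) with the mean of probe sets. With 1 array left out they turned for PSMA2 (-0.0933 to 0.122), PSMA5 (-0.0398 to 0.115), PSMC3 (-0.0813 to 0.233), PSME3 (-0.413 to 0.0355) and PSME4 (-0.00926 to 0.302). Without both arrays PSMA2 was at 0.184 and PSME3 at -0.50. The causes were not tested. Whether equally numbered sorts shared a culture or day is not given in the labels. The correlations of their deviations were 0.114, 0.126, 0.234 and 0.0138. With the replicate block 1 proteasome gene and 1 probe set passed, as in the report, with 16 at an unadjusted p under 0.05, and all genes passing went from 293 to 753.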
